A study of Mus musculus with 32 samples.

Results

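The genes described here are 10 mouse zinc genes, 8 zinc transporters (*Slc30a1*, *Slc30a2*, *Slc30a4*, *Slc30a5*, *Slc30a7*, *Slc30a8*, *Slc39a8*, and *Slc39a14*) and 2 metallothioneins (*Mt1* and *Mt2*), chosen by name from the 22850 genes of the expression table. *Slc30a8* was a β cell gene, *Slc30a1* was highest in ECs, and both metallothioneins were lower in ECs than in β cells, with *Mt1* also lower in ECs than in MΦs at both times tested. No member passed the test for a change over time within a cell type, but *Slc30a1* changed differently from No Dox to 1wk WD in β cells than in the other types, with a lower change in β cells. The call of this difference against MΦs was lost on leaving out some single samples.

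Sorting of pancreatic islets gave β cells, ECs (endothelial cells), and MΦs (macrophages). The adult mice carried MIP-GFP together with RIP-rtTA and TetO-VEGF-A. In this line the rat insulin promoter drives the tetracycline activator in β cells, doxycycline (Dox) in the drinking water then switches on human VEGF-A there, and the mouse insulin promoter labels β cells with GFP. All groups, the No Dox controls included, carried the 3 transgenes. No Dox mice had no Dox, 1wk Dox mice had it for 1 week, and 1wk WD mice had 1 week of Dox and then 1 week without it. In this order of times there were 4, 5, and 3 samples of β cells, 4, 1, and 5 of ECs, and 4, 2, and 4 of MΦs. Islets from several animals went into a sample, and nothing states which mice or sort days the replicates share, so p-values measure the spread between these samples. In sorted bulk RNA, fewer cells of a type and less RNA per cell cannot be told apart.

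Zinc in a cell is set by transporters of opposite direction and by proteins that bind it. SLC30 (ZnT) proteins move zinc out of the cytosol, across the plasma membrane or into vesicles, SLC39 (ZIP) proteins bring it into the cytosol, and metallothioneins are small cysteine-rich proteins that hold zinc and copper. The zinc-sensing transcription factor encoded by *Mtf1* binds metal response elements and is known to switch on *Mt1*, *Mt2*, and *Slc30a1*. β cells are known for zinc because insulin is stored in their granules as zinc crystals, which needs ZnT8, the product of *Slc30a8*.

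*Mt2* and *Mt1* lie 5521 bases apart on the plus strand of chromosome 8 (mm9), *Mt2* at chr8:96696518-96697467 and *Mt1* at chr8:96702989-96704225. Their coding sequences are shown because reads of such a pair can be hard to assign and because the cysteine codons, in capitals, are what makes the proteins bind metal.
Mt1: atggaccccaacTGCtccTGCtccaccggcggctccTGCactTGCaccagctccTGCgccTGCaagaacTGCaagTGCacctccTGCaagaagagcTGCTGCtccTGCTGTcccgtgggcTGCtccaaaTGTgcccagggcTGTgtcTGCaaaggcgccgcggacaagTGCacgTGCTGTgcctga
Mt2: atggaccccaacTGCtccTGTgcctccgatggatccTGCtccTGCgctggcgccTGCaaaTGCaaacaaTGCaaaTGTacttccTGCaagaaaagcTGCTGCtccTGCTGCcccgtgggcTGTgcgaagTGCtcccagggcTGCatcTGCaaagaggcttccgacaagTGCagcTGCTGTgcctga
Each holds 61 codons before the stop, 20 of them for cysteine, at the same 20 places in both (GENCODE M1). The sequences are identical at 148 of 186 bases (79.6%), with a longest identical run of 20 bases. No stretch of 50 bases, the length of a read, is common to the *Mt1* and *Mt2* transcripts, so a full-length matching read fits 1 of the pair.

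The 250 bases before the RefSeq start of these genes and of *Slc30a1* are shown for the core of the metal response element (TGCACNC or TGCGCNC, on either strand), in capitals.
Mt1, chr8:96702739-96702988: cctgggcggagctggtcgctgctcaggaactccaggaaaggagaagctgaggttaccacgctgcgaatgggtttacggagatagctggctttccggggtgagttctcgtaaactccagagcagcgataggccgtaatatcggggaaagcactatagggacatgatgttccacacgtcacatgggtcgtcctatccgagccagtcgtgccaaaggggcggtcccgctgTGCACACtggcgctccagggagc
Mt2, chr8:96696268-96696517: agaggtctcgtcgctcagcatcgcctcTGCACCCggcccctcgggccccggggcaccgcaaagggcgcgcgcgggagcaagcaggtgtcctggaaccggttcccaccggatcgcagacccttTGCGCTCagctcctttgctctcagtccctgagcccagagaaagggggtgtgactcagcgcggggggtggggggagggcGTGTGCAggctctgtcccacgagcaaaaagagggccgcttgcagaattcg
Slc30a1, chr1:193730410-193730659: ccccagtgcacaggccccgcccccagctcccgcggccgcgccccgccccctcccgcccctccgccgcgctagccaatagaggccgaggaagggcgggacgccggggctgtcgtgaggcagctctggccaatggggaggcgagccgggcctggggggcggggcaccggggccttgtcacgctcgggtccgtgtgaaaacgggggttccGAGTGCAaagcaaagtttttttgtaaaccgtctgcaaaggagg
Counting also the 50 bases after the start, *Mt2* held 4 cores, *Mt1* 3, and *Slc30a1* 2. Of 32851 promoters of this 300-base length in the RefSeq table (GRCm38.p6), 25.7% held at least 1 core, 7.11% at least 2, 1.97% at least 3, and 0.517% at least 4. Each shown stretch matched the mm9 genome at 1 place, on the plus strand. Of the other members with a promoter in the table, *Slc30a4* held 3 cores, *Slc30a2* 2, *Slc30a5* 1, the 2 promoters of *Slc39a8* 0 and 1, and *Slc30a7* 0. A match of these letters is a description and not a measured site.

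The values are scores: normalized expression that the authors gave in whole numbers. The lowest is 1, so a score of 1 is a floor, and read depth is unknown. Summed scores per sample ran from 23465985 to 53441769. The sorted populations carried their own markers: 8 β cell markers held 1.44 to 27.9% of the summed scores in β cells and at most 0.0106% in ECs and 0.0861% in MΦs, 8 endothelial markers held 1.07 to 1.47% in ECs, and 8 macrophage markers held 0.553 to 1.3% in MΦs. Of the other types' markers in β cells, the endothelial share was 0.00404 to 0.0149% without Dox, 0.00417 to 0.167% with it, and 0.013 to 0.0387% after withdrawal. The macrophage share in β cells was 0.0014 to 0.0121%, 0.00441 to 0.0222%, and 0.0149 to 0.0271% in the same order, so that all 3 of the 1wk WD samples were above all 4 of the No Dox samples. Markers of exocrine acinar cells were uneven. The 8 acinar markers held 5% or more of the summed scores in 5 samples, all No Dox: β cell replicates 3 and 4 (24.9% and 21.3%), MΦ replicates 2 and 4 (21.8% and 5.22%), and EC replicate 2 (5.07%). In these samples none of the 8 was listed at 1. In the 1wk Dox samples they held at most 0.0773%, and in the 1wk WD samples at most 2.12%. The 8 stromal markers held 0.00243% and 0.00297% of the summed scores in No Dox β cell replicates 1 and 2, 0.296% and 1.2% in replicates 3 and 4, and 0.0637 to 1.81% in the 8 later β cell samples. Where β cells are compared over time without replicates 3 and 4, the stromal share is thus lower in both remaining No Dox samples than in all later ones, and its part in those values was not tested. The library identifiers in the table header place both 1wk Dox MΦ samples, the 1wk Dox EC sample, and 1wk WD β cell replicate 3 in a range apart from the rest, so that 1wk Dox and this range cannot be told apart in MΦs or in ECs.

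**Figure D1:**
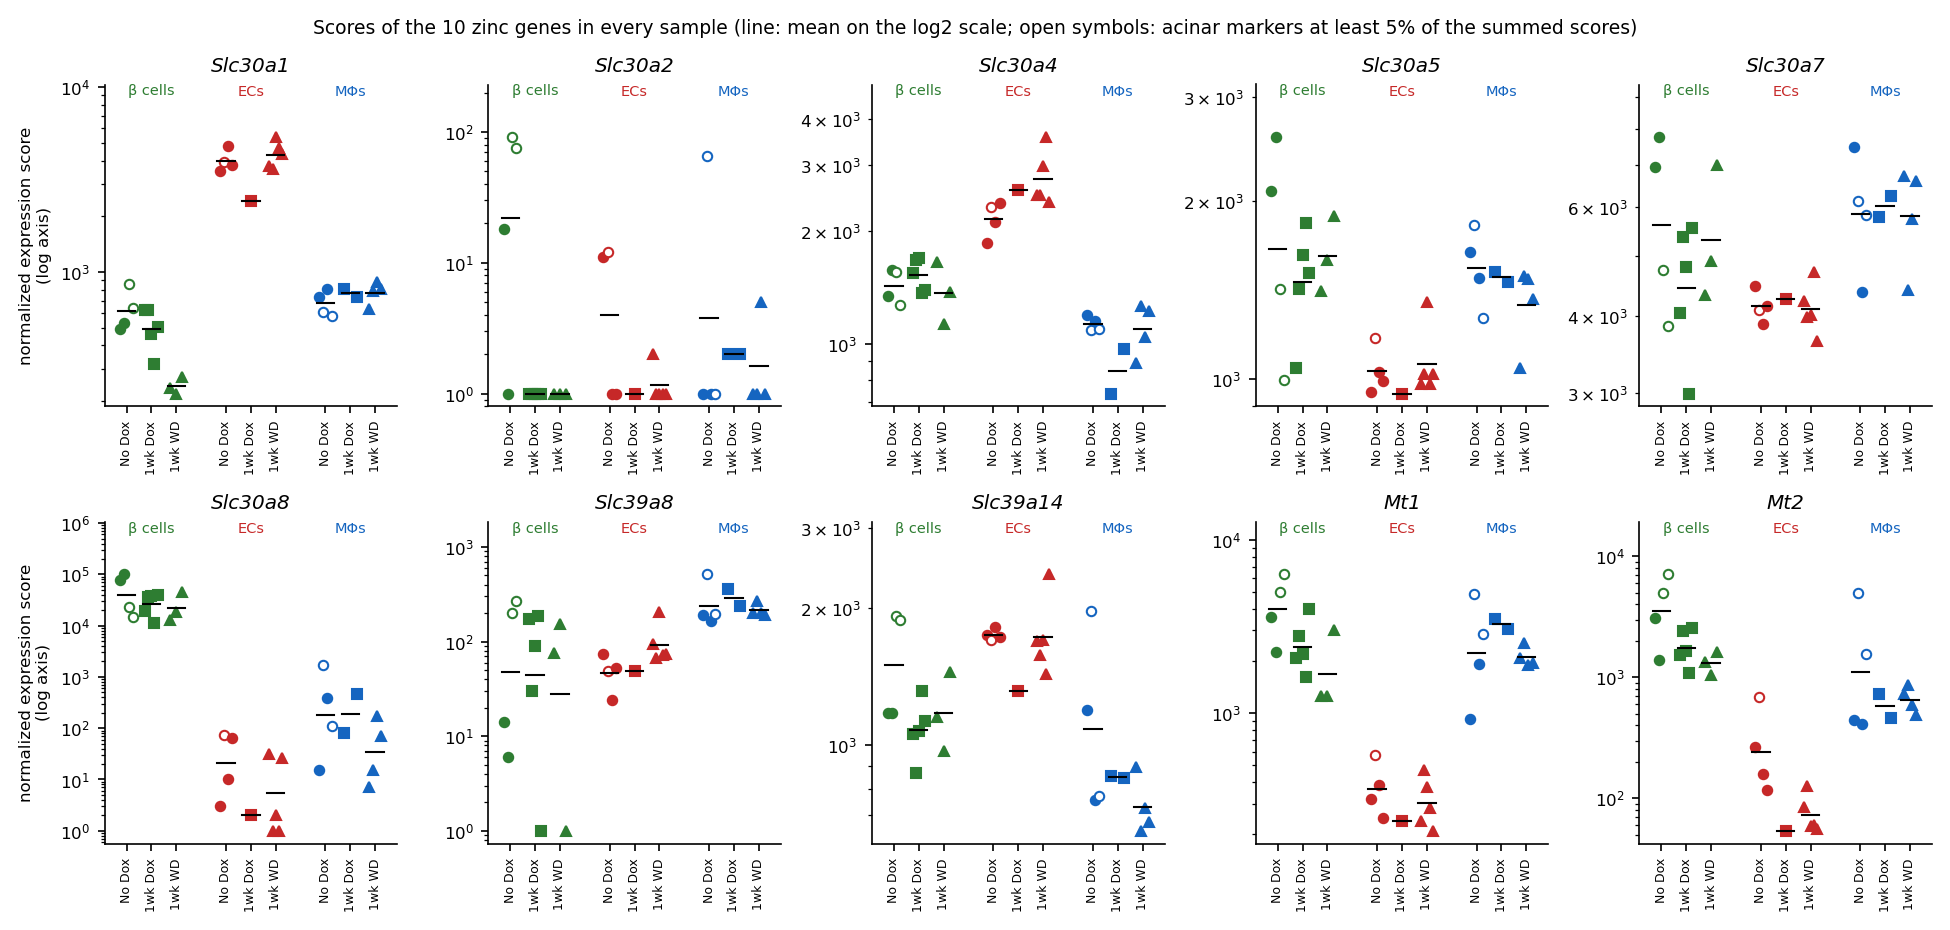
Scores of the 10 members on a log axis, 1 symbol per sample, by cell type (color) and time point (circle No Dox, square 1wk Dox, triangle 1wk WD), with the mean of log2(score + 1) as a line. Open symbols are the 5 samples with an acinar marker share of 5% or more. *Slc30a8* was between 11396 and 101204 in β cells and at most 74 in ECs, while *Slc30a1* was between 2424 and 5370 in ECs and at most 864 in β cells.

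*Slc30a8* (chr15:52127108-52167353) encodes the transporter that loads zinc into insulin granules. In β cells its scores were 75964, 101204, 23080, and 14896 in the No Dox group, 19536, 36778, 37795, 11396, and 39480 after Dox, and 12643, 18798, and 44765 after withdrawal. The 3 time points overlapped, and No Dox alone spanned nearly the whole range of the gene in β cells. The low No Dox replicates 3 and 4 were those with the high acinar shares, and their 8 β cell markers summed to 1655791 and 628170, against 8664281 and 5535990 in replicates 1 and 2. At 1wk WD the highest of the 3, replicate 3, likewise had the highest β cell marker sum (10888983, against 623088 and 1898635). At 1wk WD the difference from No Dox was -0.87 ± 0.72 on the log2 scale (SE, limma, adjusted p = 0.707), and without No Dox replicates 3 and 4, with the 2 samples of low stromal share left, *Slc30a8* was 3.99-fold lower (SE 0.63 on the log2 scale, adjusted p = 0.0784). The part of the sort in these levels was not tested. ECs were between 1 and 74. MΦs were at 15, 1743, 386, and 110 without Dox, 79 and 455 with it, and 7, 15, 170, and 69 after withdrawal. The highest MΦ score came from No Dox replicate 2, which also held the highest *Ins1* score of the MΦ samples, 27471, beside 1046 to 8654 in the other MΦ samples.

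A gene was called in a comparison at a fold change of 2 or more with a Benjamini-Hochberg adjusted p under 0.05 over all genes tested (limma on log2(score + 1)). *Slc30a8* was higher in β cells than in ECs by 10.87 ± 1.36 on the log2 scale at No Dox (SE, adjusted p = 4.9e-05) and by 11.76 ± 1.16 at 1wk WD (adjusted p = 2.36e-06). Against MΦs the difference was 7.76 ± 1.36 (adjusted p = 0.000496) and 9.29 ± 1.21 (adjusted p = 2.3e-05), with no overlap between the samples in any of these comparisons. The size of these differences moved with single samples. At No Dox it was 10.06 and 11.46 against ECs without EC replicate 1 and 2, and 6.58 and 8.84 against MΦs without MΦ replicate 1 and 2. At 1wk WD it was 12.34 at most against ECs, and 8.58 and 10.05 against MΦs without MΦ replicate 1 and 3. Without the high-acinar samples the No Dox values were 12.59 ± 1.51 and 10.12 ± 1.65, and *Slc30a8* was called in each of these settings. Over the means of the 9 groups, the genes with the pattern most like *Slc30a8* among 16968 genes were *Lonrf2* (Pearson r = 0.9985), *Rfx6*, an islet transcription factor (r = 0.9978), and *Resp18*, a gene of endocrine secretory granules (r = 0.9977). These group means share the libraries of each cell type. Those of *Slc30a8* were 14.42 to 15.30 on the log2 scale in β cells and at most 7.58 in the other types. The part of this step in the likeness was not tested.

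*Slc30a1* (chr1:193730646-193737126) encodes ZnT1, which exports zinc across the plasma membrane. In ECs its scores were 3519, 3939, 4819, and 3788 without Dox, 2424 in the 1wk Dox sample, and 3755, 3609, 5370, 4696, and 4335 after withdrawal. MΦ samples were between 579 and 882. In β cells the scores were 490, 528, 864, and 638 without Dox, 626, 619, 462, 318, and 501 with it, and 235, 220, and 270 after withdrawal. All 3 of the 1wk WD β cell samples were thus below all 9 earlier β cell samples, while the time points overlapped in ECs between No Dox and 1wk WD and in MΦs. The 1wk Dox β cell samples at 626 and 619 held endothelial marker shares of 0.167% and 0.0524%, that at 462 held 0.0717%, and those at 318 and 501 held 0.0222% and 0.00417%. The endothelial share was 0.013 to 0.0387% in the 1wk WD β cell samples, beside 0.00404 to 0.0149% in those of No Dox, and its part in the *Slc30a1* scores was not tested. *Slc30a1* was lower in β cells than in ECs by 2.70 on the log2 scale at No Dox (a difference of -2.70 ± 0.20, 6.48-fold higher in ECs, adjusted p = 1.04e-06) and more so at 1wk WD (-4.16 ± 0.18, 17.8-fold, adjusted p = 4.69e-09). ECs were also above MΦs at No Dox (2.56 ± 0.20, adjusted p = 8.29e-07) and at 1wk WD (2.48 ± 0.16, adjusted p = 2.19e-08). β cells did not pass the test against MΦs at No Dox (-0.14 ± 0.20, adjusted p = 0.573) and were 3.19-fold lower than MΦs at 1wk WD (-1.68 ± 0.18, adjusted p = 5.31e-06).

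Within β cells the difference of 1wk WD from No Dox, -1.35 ± 0.30 on the log2 scale, did not pass over all genes (limma, adjusted p = 0.462), nor did that from 1wk Dox (-1.02 ± 0.29, adjusted p = 0.643). The No Dox scores of 864 and 638 came from replicates 3 and 4, of the high acinar shares. Without these, against the samples of low stromal share, the difference from No Dox was -1.08 ± 0.37 (limma, adjusted p = 0.105). The change itself was compared between cell types in a fit of the No Dox and 1wk WD samples of all 3. It was lower in β cells than in ECs by 1.46 log2 units (-1.46 ± 0.26, adjusted p = 0.0133) and lower than in MΦs by 1.54 (-1.54 ± 0.27, adjusted p = 0.0196), and ECs and MΦs differed by -0.08 ± 0.25 (adjusted p = 0.959). *Slc30a1* was the 1 member called in each of the first 2 of these comparisons, where 0.368% and 0.0475% of the 16833 genes tested were called, and 0 members were called between ECs and MΦs, where 0.0356% of genes were (limma; 0 members at an unadjusted p under 0.05, beside 11.5% of all genes). Without the 5 samples of high acinar share, a step added after the data were seen, the values were -1.18 ± 0.26 (adjusted p = 0.00441) and -1.07 ± 0.28 (adjusted p = 0.0162), but 15.6% and 13% of all genes were then called, and the 2 No Dox β cell samples left were those of the low stromal share. Without 1wk WD β cell replicate 3, of the separate identifier range, they were -1.54 (adjusted p = 0.0074) and -1.62 (adjusted p = 0.00986). The call against MΦs was lost on leaving out 1wk WD β cell replicate 2 or 1wk WD MΦ replicate 2, 3, or 4, with adjusted p between 0.0507 and 0.0729 and a value of -1.47 to -1.53.

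**Figure D2:**
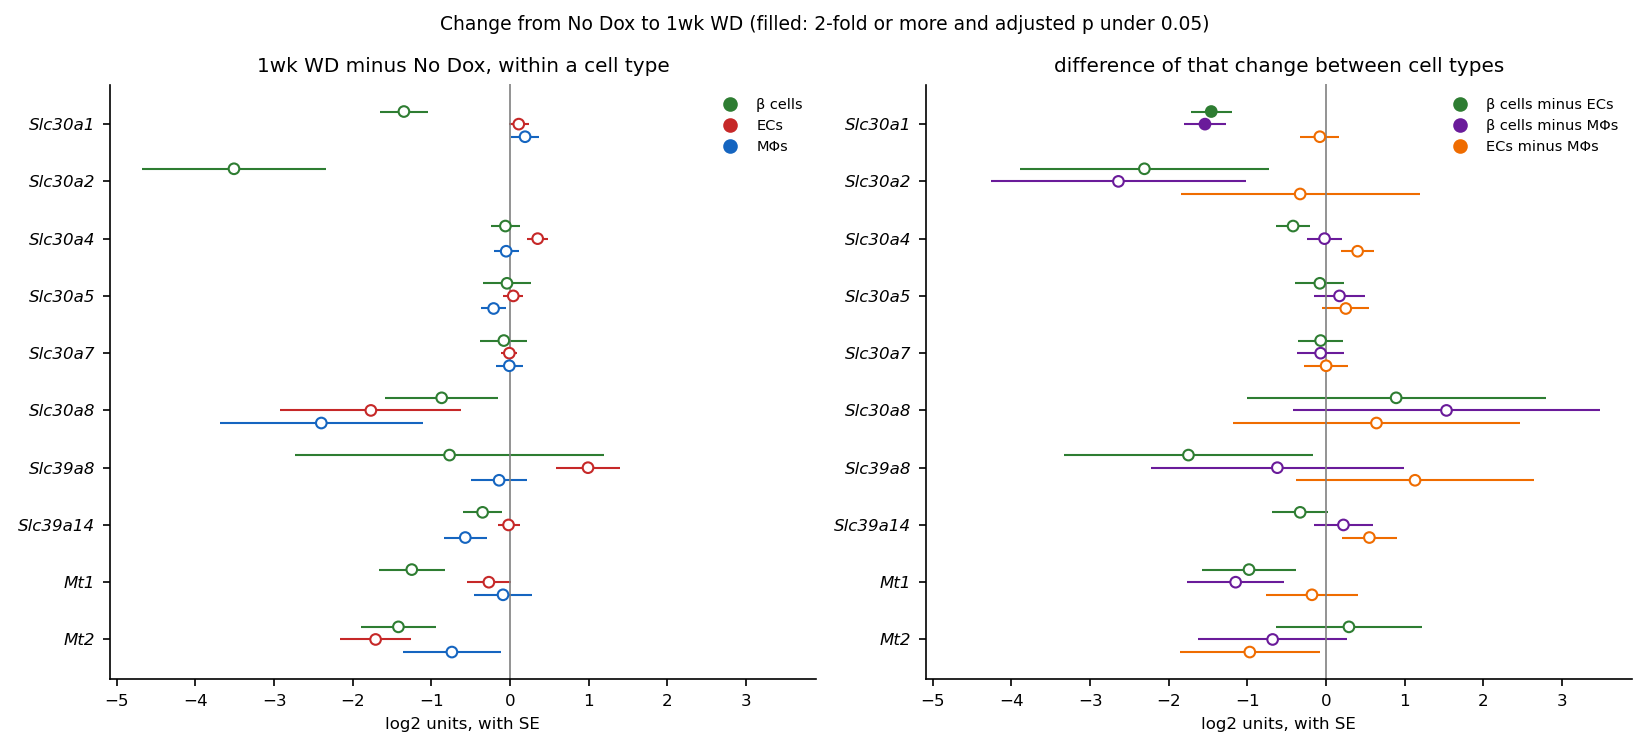
Change of log2(score + 1) from No Dox to 1wk WD for each member within each cell type (left) and the difference of that change between cell types (right), with SE bars and filled symbols for called differences. *Slc30a1* is the filled member on the right, at -1.46 and -1.54, and no symbol on the left is filled. Members without a symbol did not reach the mean score of 20 in that fit.

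*Slc30a4* (chr2:122506969-122528399), whose product ZnT4 loads zinc into endosomes and other vesicles, was also highest in ECs. EC scores were 1860, 2321, 2122, and 2373 in No Dox samples, 2580 in the 1wk Dox sample, and 2496, 2506, 2983, 3574, and 2388 after withdrawal. β cells were between 1129 and 1693 and MΦs between 738 and 1265. All 5 of the 1wk WD ECs were above all 4 of the No Dox ECs, by 0.35 ± 0.13 on the log2 scale, which did not pass (adjusted p = 0.159). At 1wk WD ECs were 2.51-fold above MΦs (1.33 ± 0.17, adjusted p = 1.8e-05) and 2.01-fold above β cells (β cells minus ECs -1.01 ± 0.19, adjusted p = 0.000527). The latter lies at the 2-fold limit and dropped below it when 1 of 3 samples was left out (1wk WD β cell replicate 2 or 1wk WD EC replicate 3 or 4, -0.98 to -0.87). At No Dox the samples of ECs also did not overlap those of either other type, at less than 2-fold (β cells minus ECs -0.59 ± 0.13, ECs minus MΦs 0.93 ± 0.13). The latter reached 2-fold and was called without EC replicate 1 (1.00, adjusted p = 0.000144). Both 1wk Dox MΦ samples (738 and 969) were below the 4 No Dox MΦ samples (1093 to 1194), by -0.42 ± 0.19 (adjusted p = 0.232).

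*Slc30a2* (chr4:133899096-133910399) encodes ZnT2, a vesicle zinc transporter known from acinar pancreas and mammary gland. β cells were at 18, 1, 92, and 76 at No Dox and listed at 1 in all 8 later samples. Among the other types the scores above 5 were 11 and 12 in No Dox EC replicates 1 and 2 and 66 in No Dox MΦ replicate 2. The 3 highest, 92, 76, and 66, were the 3 samples with acinar shares of 24.9%, 21.3%, and 21.8%, while No Dox MΦ replicate 4, at a share of 5.22%, was listed at 1. Among the other zinc genes *Slc39a5*, chosen for mention after its values were seen, had its highest scores in the same 3 samples, 938, 507, and 747. The difference of *Slc30a2* between No Dox β cells and each later time point did not pass (adjusted p = 0.455 and 0.563). It passed for 1wk Dox on leaving out No Dox β cell replicate 2, the No Dox sample listed at 1.

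*Slc30a5* (chr13:101572604-101603382) and *Slc30a7* (chr3:115641891-115710324) supply zinc to the early secretory pathway. *Slc30a5* ranged from 997 to 2566 in β cells, 944 to 1348 in ECs, and 1041 to 1822 in MΦs. *Slc30a7* ranged from 2999 to 7768, 3647 to 4712, and 4363 to 7493. With all samples, no comparison called either gene. For β cells, ECs, and MΦs in turn, 1wk WD differed from No Dox by -0.04 ± 0.31, 0.04 ± 0.13, and -0.21 ± 0.16 for *Slc30a5* and by -0.08 ± 0.30, -0.01 ± 0.10, and -0.01 ± 0.17 for *Slc30a7*. *Slc30a5* was higher in β cells than in ECs by less than 2-fold, 0.68 ± 0.26 at No Dox (adjusted p = 0.0435) and 0.60 ± 0.18 at 1wk WD (adjusted p = 0.0115). Without the high-acinar samples the former was 1.22 ± 0.16 and was called (adjusted p = 0.000449).

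Of the importers, *Slc39a14* (chr14:70703274-70751232) encodes ZIP14, which carries zinc, manganese, and iron. EC samples were between 1314 and 2379. β cells were at 1176, 1178, 1925, and 1886 at No Dox and between 866 and 1446 afterwards, and MΦs at 1195, 1971, 755, and 772 at No Dox and between 647 and 896 afterwards. In these types the scores 1925, 1886, and 1971 were those of the 3 samples with the highest acinar shares, and the part of acinar RNA in them was not tested. ECs were 2.37-fold above MΦs at 1wk WD (1.24 ± 0.18, adjusted p = 5.99e-05) and did not pass at No Dox (0.69 ± 0.29, adjusted p = 0.0763). *Slc39a8* (chr3:135488243-135551536) encodes ZIP8, an importer of zinc and manganese. Its scores were low: 165 to 517 in MΦs, 24 to 206 in ECs, and 1 to 270 in β cells, where No Dox replicates 1 and 2 were at 14 and 6 and replicates 3 and 4 at 201 and 270. At No Dox no difference between cell types passed: β cells minus ECs was 0.05 ± 1.06 (adjusted p = 0.979), β cells minus MΦs -2.28 ± 1.06 (adjusted p = 0.087), and ECs minus MΦs -2.33 ± 1.06 (adjusted p = 0.0985). Without the high-acinar samples all 3 were called, at -2.19 ± 0.64 (adjusted p = 0.0227), -4.12 ± 0.70 (adjusted p = 0.0018), and -1.93 ± 0.64 (adjusted p = 0.0423). The No Dox samples of ECs and MΦs did not overlap. With only these 2 groups fitted, ECs minus MΦs was -2.33 and was called (limma, adjusted p = 0.00211). MΦs were above β cells at 1wk WD (β cells minus MΦs -2.91 ± 1.10, adjusted p = 0.0363). Without 1wk WD β cell replicate 3, listed at 1, the difference was -0.98 (adjusted p = 0.0984), without replicates 1 and 2 in turn it was -3.62 and -4.12, and the call was also lost on leaving out any 1 of the 4 MΦ samples (-2.96 to -2.80, adjusted p = 0.0596 to 0.0741). The genes most like *Slc39a8* over the 9 group means were *Man1a* (r = 0.9818), *Senp2* (r = 0.9818), and *Zfp263* (r = 0.9806).

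*Mt1* scores in β cells were 3598, 2242, 5019, and 6337 in No Dox samples, 2069, 2784, 2187, 1624, and 3969 after Dox, and 1264, 1257, and 3015 after withdrawal. ECs were between 210 and 573. MΦs were at 932, 4877, 1916, and 2867 in No Dox samples, 3510 and 3048 after Dox, and 2070, 2530, 1896, and 1943 after withdrawal. For *Mt1* no EC sample reached the lowest β cell or MΦ sample, and β cells and MΦs overlapped. *Mt2* scores in β cells were 3078, 1379, 5015, and 7121, then 1522, 2426, 1654, 1092, and 2538, then 1341, 1036, and 1632 at the same time points. In ECs they were 268, 687, 158, and 118 without Dox, 54 with it, and 85, 126, 59, 60, and 56 after withdrawal. In MΦs they were 446, 4957, 415, and 1570, then 730 and 461, then 731, 865, 593, and 491. The highest No Dox samples of each type, for both genes (β cell replicates 3 and 4, EC replicate 2, MΦ replicates 2 and 4) were the 5 samples with an acinar share of 5% or more.

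*Mt1* was 10.9-fold higher in β cells than in ECs at No Dox (3.45 ± 0.48 on the log2 scale, adjusted p = 0.000102) and 5.56-fold at 1wk WD (2.48 ± 0.32, adjusted p = 2.6e-05). *Mt2* was 14.4-fold higher at No Dox (3.85 ± 0.82, adjusted p = 0.00229) and 17.7-fold at 1wk WD (4.14 ± 0.32, adjusted p = 2.98e-07). MΦs were above ECs for *Mt1* at both times (6.12-fold, adjusted p = 0.000772, and 6.92-fold, adjusted p = 2.54e-06) and for *Mt2* at 1wk WD (8.82-fold, adjusted p = 8.15e-07), with *Mt2* at No Dox just short of the threshold (ECs minus MΦs -2.17 ± 0.82, adjusted p = 0.0511), and called at a smaller difference without the high-acinar samples (-1.33 ± 0.45, adjusted p = 0.0459). Without the 5 high-acinar samples the β cell and EC differences at No Dox were 3.17 ± 0.37 for *Mt1* (adjusted p = 0.000271) and 3.58 ± 0.45 for *Mt2* (adjusted p = 0.000401), and 45.4% of all genes were called there. β cells were above MΦs for *Mt2* at 1wk WD at the 2-fold limit (1.00 ± 0.34, adjusted p = 0.0207), a call lost on leaving out any of 4 samples (1wk WD β cell replicates 1 and 3, 1wk WD MΦ replicates 3 and 4, 0.85 to 0.99), and not for *Mt1* (-0.31 ± 0.33, adjusted p = 0.444). At No Dox neither gene was called between β cells and MΦs with all samples. Without the high-acinar samples *Mt2* was called higher in β cells (2.26 ± 0.49, limma, adjusted p = 0.00592), where 50.4% of all genes were called. *Mt1* then did not pass (1.09 ± 0.41, limma, adjusted p = 0.0518).

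**Figure D3:**
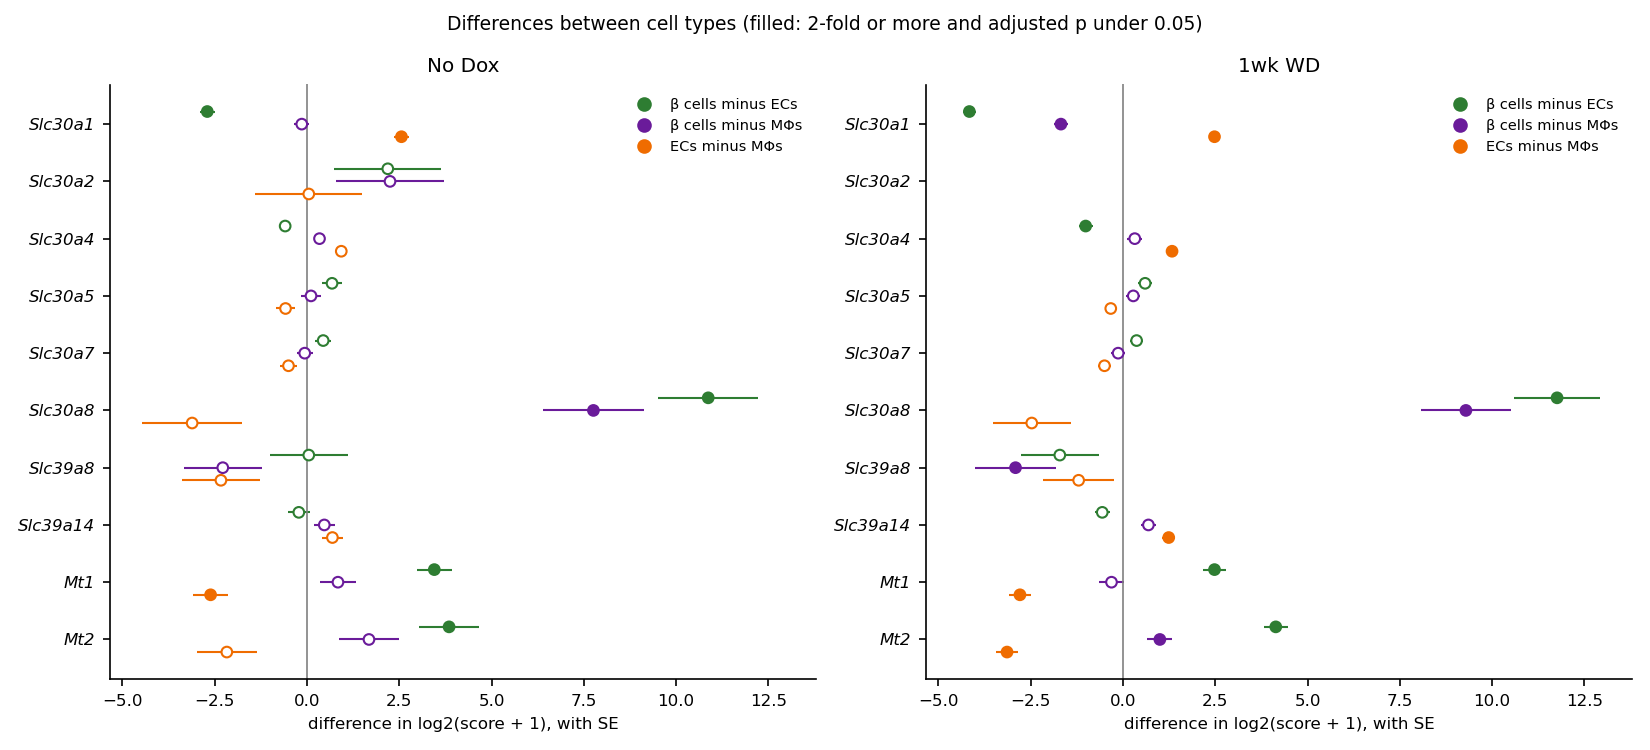
Differences in log2(score + 1) between cell types for each member at No Dox (left) and 1wk WD (right), with SE bars and filled symbols for called differences. *Slc30a8* stands far right in both comparisons with β cells (7.76 to 11.76), and *Mt1* and *Mt2* are filled on the right for β cells minus ECs at both times.

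Over time the metallothioneins did not pass in any cell type. The nearest was *Mt2* in ECs, where 1wk WD minus No Dox was -1.71 ± 0.45 (limma, adjusted p = 0.0565). The groups overlapped by 1 pair of samples, the highest 1wk WD sample at 126 and the lowest No Dox sample at 118. The call was made on leaving out No Dox replicate 4 or 1wk WD replicate 2, and without No Dox replicate 2, of the high acinar share, the value was -1.21 ± 0.38 (adjusted p = 0.139). In β cells *Mt1* and *Mt2* at 1wk WD differed from No Dox by -1.25 ± 0.42 and -1.42 ± 0.48 (adjusted p = 0.563 and 0.566), and without No Dox replicates 3 and 4, against the samples of low stromal share, by -0.75 ± 0.45 and -0.65 ± 0.42. In MΦs *Mt1* at 1wk Dox differed from No Dox by 0.55 ± 0.45 (adjusted p = 0.527), and without No Dox replicates 2 and 4 it was called higher (1.29 ± 0.29, adjusted p = 0.0206), where 6.41% of all genes were. That comparison is also one in which the identifier range and 1wk Dox cannot be told apart.

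*Mt1* and *Mt2* varied together from sample to sample. In β cells, r between their log2 scores was 0.93 over 12 samples and rho was 0.94 (permutation test, adjusted p = 6e-05 and 0.00018 over 3 cell types). r was 0.88 for deviations from the time point means, and 0.87 both without the 2 samples farthest from the median of *Mt1* and without the high-acinar samples. In ECs r was 0.71 and rho 0.76 over 10 samples (permutation test, adjusted p = 0.0283 and 0.0223), and in MΦs r was 0.70 and rho 0.64 over 10 samples (permutation test, adjusted p = 0.0372 and 0.054). In both, r rested on the extreme samples: it was 0.43 and 0.41 without the 2 farthest, and 0.45 and 0.47 without the high-acinar samples. For deviations from the time point means it was 0.72 and 0.89. Unadjusted, the permutation p of r for β cells, ECs, and MΦs was 2e-05, 0.0189, and 0.0372. The permutation p of rho was 6e-05, 0.0149, and 0.054. The genes most like *Mt1* over the 9 group means were *Pgap1* (r = 0.9876), *Slc7a8* (r = 0.9865), and *Slc46a1*, a folate and heme transporter (r = 0.9844), and *Mt2* had an r of 0.91.

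**Figure D4:**
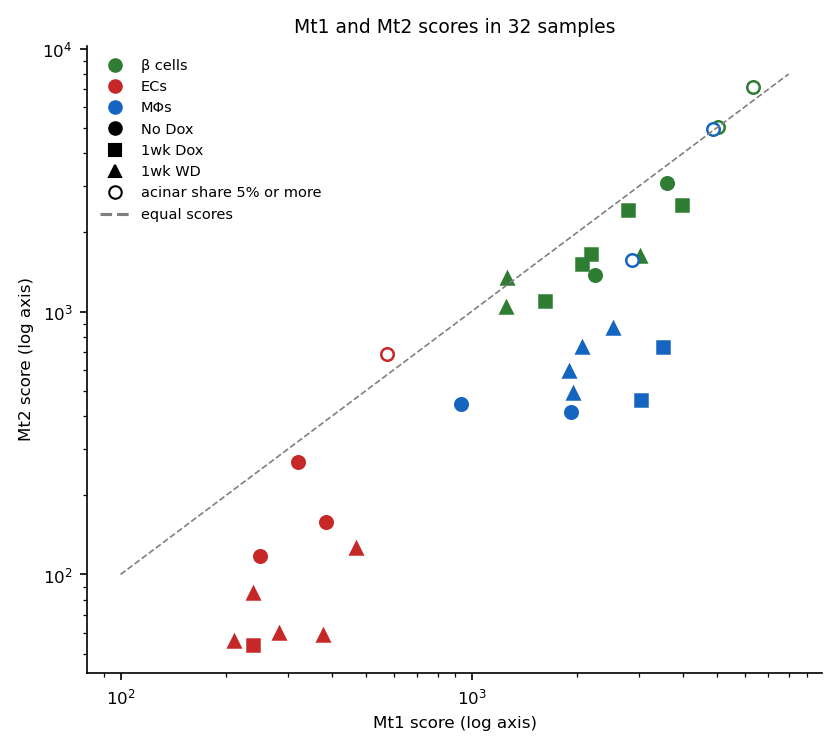
*Mt2* against *Mt1* scores in the 32 samples, both on log axes, by cell type (color) and time point (shape), with open symbols for the 5 high-acinar samples and a dashed line at equal scores as a guide. In β cells *Mt2* minus *Mt1* was -0.89 to 0.17 on the log2 scale (mean -0.34), with r = 0.93 between the 2 genes. ECs are lowest on the *Mt1* axis, and on the *Mt2* axis EC No Dox replicate 2, at 687, lies among the MΦs. All MΦs but No Dox replicate 2, at 4877 and 4957, lie below the line.

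**Figure D5:**
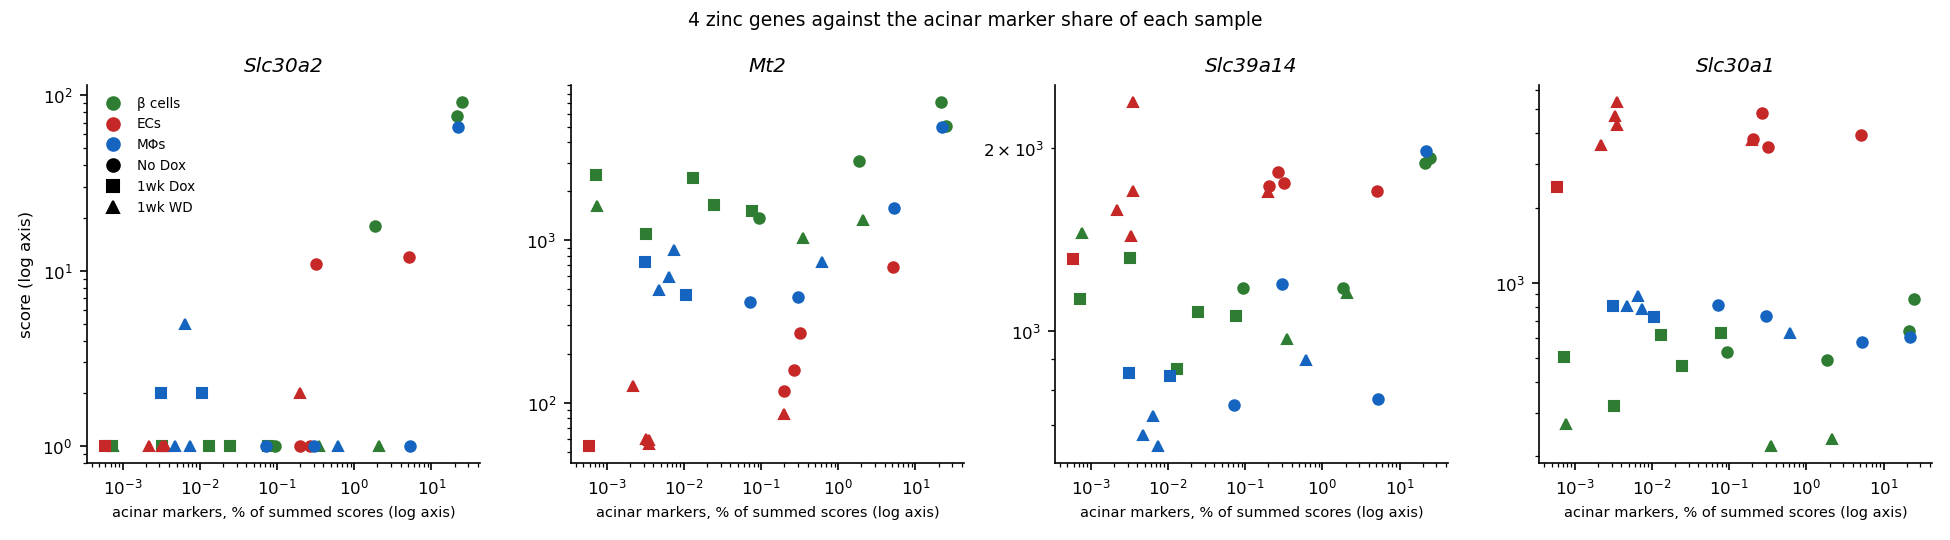
Scores of 4 members against the share of the summed scores held by the 8 acinar markers in each sample, both on log axes. *Slc30a2* reached 66 or more in the 3 samples with shares above 20%, while the 3 lowest *Slc30a1* scores of β cells (220, 235, and 270) came from samples at shares of 0.00076 to 2.12%.

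Counted over the 10 members, 0 were called in each of the 7 comparisons over time (limma, with *Slc30a2* not tested in ECs and MΦs). The share of all genes called in β cells was 0.0122% for 1wk Dox against No Dox, 0% for 1wk WD against No Dox, and 0% for 1wk WD against 1wk Dox. Without No Dox replicates 3 and 4 the shares against No Dox were 7.36% for 1wk Dox and 8.74% for 1wk WD, with 0 members called in either. In ECs it was 1.76% for 1wk WD against No Dox, and in MΦs 2.26%, 0.626%, and 0.0866% for the 3 comparisons in the order given for β cells. At an unadjusted p under 0.05 there were 3, 4, and 1 of 10 members in β cells, where 6.99%, 8.17%, and 6.31% of all genes were, 3 of 9 in ECs, where 21.9% were, and 1, 0, and 0 of 9 in MΦs, where 21.3%, 17.3%, and 9.7% were. The replicates of the groups did not overlap for 0, 1, and 1 members in β cells, where 2.55%, 6.44%, and 4.97% of all genes did not, for 1 in ECs, where 10.7% did not, and for 1, 0, and 1 in MΦs, where 30.9%, 9.24%, and 30% did not. The median change of the members in β cells was -0.40 for 1wk Dox and -0.82 for 1wk WD against No Dox, beside 0.03 and 0.06 over all genes, and without No Dox replicates 3 and 4, where 9 members were tested, it was -0.23 and -0.52. In the single 1wk Dox EC sample analysed here, which has no replicate check and lies in the separate identifier range, 2 of 9 members were past 2-fold from the No Dox mean, *Slc30a8* (2 against 38) and *Mt2* (54 against 308), as were 10.7% of all genes.

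Between cell types, 4 of 10 members were called for β cells against ECs at No Dox, 1 for β cells against MΦs, and 2 for ECs against MΦs, where 37.7%, 43.2%, and 33.5% of all genes were called. Without the high-acinar samples 6, 3, and 4 members were called, beside 45.4%, 50.4%, and 38% of all genes. At 1wk WD 5, 4, and 5 of 9 members were called, beside 39.9%, 46.2%, and 40.3% of all genes. These shares of the members lie on both sides of those of all genes.

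The other zinc genes were a list of 20: the remaining SLC30 and SLC39 transporters, *Mt3*, *Mt4*, the zinc sensor *Mtf1*, and the vesicle zinc transporter gene *Tmem163*. None of the 14 to 18 tested was called over time (limma; 0 to 5 per comparison at an unadjusted p under 0.05, beside the shares of all genes given for the members). Between cell types 5, 8, and 5 of 18 were called at No Dox, where 37.7%, 43.2%, and 33.5% of all genes were, and 3, 4, and 3 of 18 at 1wk WD, where 39.9%, 46.2%, and 40.3% were, so that these genes were not called more often than all genes except by a small margin for β cells against MΦs at No Dox. *Slc39a12* and *Slc39a4*, both importers, were MΦ genes: *Slc39a12* was between 107 and 461 in MΦs and at most 25 in β cells and ECs at No Dox and 1wk WD (β cells minus MΦs -5.98 ± 0.81 at No Dox, adjusted p = 7.31e-05), and *Slc39a4* was between 65 and 182 beside at most 23 (-4.84 ± 0.76, adjusted p = 0.000229). *Slc39a10*, a plasma membrane importer, was lower in β cells than in ECs (-1.87 ± 0.16, adjusted p = 2.67e-06) and MΦs (-1.47 ± 0.16, adjusted p = 1.38e-05) at No Dox, and *Slc39a7*, which releases zinc from the endoplasmic reticulum, was higher in β cells than in both (1.91 ± 0.32, adjusted p = 0.000404, and 1.69 ± 0.32, adjusted p = 0.000787). All 4 of these genes were called in the same direction at 1wk WD. *Tmem163* was higher in β cells than in ECs (2.25 ± 0.46 at No Dox, adjusted p = 0.00162) and MΦs (1.19 ± 0.46, adjusted p = 0.0439), and the first was called again at 1wk WD (1.91 ± 0.22, adjusted p = 9.39e-06), when *Tmem163* was also lower in ECs than in MΦs (-1.14 ± 0.20, adjusted p = 0.000308). At No Dox *Slc39a6* and *Slc39a11* were higher in β cells than in ECs (1.62 ± 0.23, adjusted p = 0.000127, and 1.09 ± 0.16, adjusted p = 0.000191), and both were higher in MΦs than in ECs. *Slc39a2*, *Slc39a3*, and *Slc39a9* were higher in β cells than in MΦs (3.17 ± 0.96, 1.06 ± 0.32, and 1.03 ± 0.31, adjusted p = 0.0149, 0.0143, and 0.0154). The sensor *Mtf1* was not called in any comparison, with group means of 1716 to 2185 at No Dox and 1792 to 2077 at 1wk WD. *Slc39a3* was also higher in ECs than in MΦs (1.04 ± 0.32, adjusted p = 0.0194). *Mt4* was listed at 1 in all 32 samples, and *Mt3* in all but 1wk WD β cell replicate 1 (113).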

How the data were processed

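RNA of sorted β cells, ECs, and MΦs was amplified and sequenced, aligned by the authors to mm9 (TopHat2 2.0, per the submitters' processing notes), and TMM-normalized in Avadis NGS. What the authors deposited is a score per gene, in whole numbers, not divided by gene length. Reads cannot be recovered from it, and the depth behind a low score is unknown. Of 38 sample columns, the 32 that match the sample labels were used. The other 6 are headed, 3 each, as ECs and MΦs under the group code of the 1wk Dox columns, match none of the samples given here, and were not used, which leaves 1 EC and 2 MΦ samples at 1wk Dox. Date-like entries in place of 25 gene symbols were restored through gene identifiers.

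Fits used limma 3.58.1 (R 4.3.3, empirical Bayes with trend, no block) on log2(score + 1). They took all genes whose mean reached 20 in a fitted group. β cell and MΦ fits held 3 time points, the EC fit No Dox and 1wk WD, the cell type fits the 3 types at 1 time, and the fit of differing changes all 6 groups. The code was tested on simulated data. Fold changes are on the log2(score + 1) scale and understate changes of low genes. Correlations were tested with 100000 permutations, two-sided. All members are named. Of the other zinc genes, counts and those called are given, and for *Slc30a8*, *Slc39a8*, and *Mt1* the 3 genes most like each over 9 group means. The members and lists were chosen with earlier results of these data known. Alternatives were other pseudocounts, filters, scalings, a fit without trend, a replicate block, the 2 groups alone, each sample left out and, added after seeing the data, the samples of high acinar share left out.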

Additional observations from a re-analysis of the deposited data

Results flagged for a closer look

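The change of *Slc30a1* from No Dox to 1wk WD differed between cell types by the test of the difference itself, by -1.46 on the log2 scale for β cells minus ECs and by -1.54 for β cells minus MΦs. The call against MΦs was lost on leaving out some single samples (limma, adjusted p up to 0.0729), and that against ECs was kept on leaving out each sample.

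Of 59 groups of 4 or 5 samples of a member, 6 held a sample far from the rest. In 3 of these, all of *Slc30a2*, the other samples were at the lowest score of 1, where any higher score stands apart. The cutoff was set at 1 in 20, the groups of different members share libraries, and chance was not tested. *Slc30a2* was at 66 in No Dox MΦ replicate 2, at 5 in 1wk WD MΦ replicate 3, and at 2 in 1wk WD EC replicate 1. *Slc39a8* was at 517 in No Dox MΦ replicate 2 and at 271 in 1wk WD MΦ replicate 2. *Slc30a5* was at 1348 in 1wk WD EC replicate 3. No Dox MΦ replicate 2 held an acinar marker share of 21.8%, and the part of it in these scores was not tested.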

How the results depend on the processing

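Of 1234 recomputed values over 68 results, 1181 kept their direction and side of the threshold, or moved by less than the spread, and 0 reversed direction. Counts of called members that moved by over 1.5 times were few. For 1wk WD against No Dox in ECs, 0 became 1 (*Mt2*) under quantile normalization and under the replicate block. For β cells against MΦs at No Dox, 1 became 2 under quantile normalization (*Slc39a8* gained) and 3 without the high-acinar samples (*Slc39a8* and *Mt2* gained). For ECs against MΦs at No Dox, 2 became 4 with only the 2 groups compared and 4 without the high-acinar samples (*Slc39a8* and *Mt2* gained in both). For 1wk Dox against No Dox in MΦs, 0 became 1 (*Mt1*) without the high-acinar samples. The cause of these was not tested. Leaving out 1 sample at a time gave 0 to 1 called members for 1wk Dox against No Dox in β cells and for 1wk WD against No Dox in ECs, 1 to 4 for β cells against MΦs and 2 to 4 for ECs against MΦs at No Dox, 2 to 4 for β cells against MΦs at 1wk WD, and 0 to 1 for the difference of changes between β cells and MΦs. At No Dox the count of 4 for β cells against MΦs came without MΦ replicate 2 (*Slc30a2*, *Mt1*, and *Mt2* gained), and that of 4 for ECs against MΦs without MΦ replicate 1. At 1wk WD *Slc30a4* between β cells and ECs was no longer called with a pseudocount of 20 or median-of-ratios scaling (-0.91), *Mt2* between β cells and MΦs with a pseudocount of 20 (0.98) or quantile normalization (0.81), and *Slc39a8* between β cells and MΦs with no filter, no trend, or the 2 groups alone (adjusted p = 0.0874, 0.0501, and 0.0993). With a pseudocount of 20 *Slc30a8* between β cells and ECs was 9.70 at No Dox and 9.54 at 1wk WD, *Slc30a8* between β cells and MΦs was 8.44 at 1wk WD, and *Slc39a8* was -1.74, and under quantile normalization *Slc39a8* was -3.96, *Slc30a1* at 1wk WD was -4.86 against ECs and -2.49 against MΦs, and its differences of change were -2.06 and -2.19. The called values of *Slc30a1* between β cells and ECs stayed called under every alternative run.

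No source says what a shared replicate number stands for. The correlation of deviations between same-numbered samples ran from -0.48 to 0.34 between time points of a cell type and from -0.19 to 0.38 between cell types at a time, so the samples were not treated as paired. Over time the replicate block gained *Mt2* in ECs and changed no other call among the members. Between cell types, where it was added after seeing the data, it gave 2 called members for β cells against MΦs at 1wk WD (*Slc39a8* and *Mt2* lost), lost *Slc30a4* for β cells against ECs at 1wk WD (-0.98), and gained *Slc30a8* for ECs against MΦs at No Dox. The differences of change of *Slc30a1* with the block were -1.42 (adjusted p = 0.0445) and -1.50 (adjusted p = 0.0307). The unknown depth limits what scores near 1 can show.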
